A study of Mus musculus with 8 samples.

Results

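The 50 genes described here copy the DNA of a dividing cell or supply what the copying needs, and they are referred to below as the replication and S-phase genes. They were taken from a fixed list of names and looked up in a table that compares each of 12 clusters of cells, numbered 0 to 11, with all other cells. The list was chosen with earlier results of these data known. Of the 50 genes, 47 had at least 1 entry among the 3896 gene symbols of the table, and the 3 without an entry were Cdt1, Gins1 and Pold2. A gene is listed for a cluster only if it passed the authors' minimums, which were detection in at least 10% of the cells on either side and a log fold change of at least 0.25, and nothing can be read from the absence of an entry.

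The cells were white preadipocytes, the precursors of fat cells, grown from the inguinal white adipose tissue (iWAT) of C57BL/6 mice that were 8 to 12 weeks old. The mice were either wild type (WT) or lacked both Hmgn1 and Hmgn2 (DKO, Hmgn1-/- and Hmgn2-/-), which encode proteins that bind nucleosomes. Cultures were sampled at day 0 and at day 6 of a browning protocol that used insulin, dexamethasone, IBMX, T3 and rosiglitazone, with 2 samples per genotype and day and 8 samples in all. The table pools the cells of all 8 samples. No value below has a replicate or an error, the number of cells and the read depth behind a value are unknown, and DKO could not be set against WT, nor day 6 against day 0. The clusters were themselves built from the expression of genes in these cells, so the differences between a cluster and the rest are given as descriptions without a test.

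DNA replication runs in steps. Before S phase the origin recognition complex, Cdc6 and Cdt1 load the ring-shaped MCM helicase onto DNA, which licenses origins of replication. In S phase Cdc45 and the GINS complex turn the helicase on, primase and the DNA polymerases copy the strands, the sliding clamp PCNA holds the polymerases in place, and enzymes of nucleotide synthesis and histone chaperones supply the building blocks. Many of these genes are transcribed together from late G1 under the E2F transcription factors, whereas genes of mitosis peak later. Preadipocytes in culture stop dividing when they become confluent and can divide again when fat cell differentiation is induced.

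The measure used throughout is the detection level, the percent of cells in a group in which at least 1 transcript of the gene was counted. Because detection over all cells must come out the same from whichever cluster it is computed, the table also fixes how large each cluster was. Cluster 5 held 8.81% of all cells, cluster 6 held 7.46% and cluster 9 held 5.80%, together 22.1%. All 47 genes with an entry were listed for at least 1 of these 3 clusters, always with detection higher than in the other cells. The label was checked with the cycling-cell marker Mki67, which was detected in 78.6% of cluster 5 cells, 92.0% of cluster 6 and 91.2% of cluster 9. Top2a, which untangles DNA, was detected in 90.7%, 95.3% and 78.9% of the cells of the same clusters.

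Cluster 5 listed 46 of the replication and S-phase genes, and all 46 were detected there at least 10 percentage points more often than in the other cells, against 19.5% of all genes of the table. Cluster 6 listed 44, again all of them at least 10 points higher, against 18.8% of all genes. Cluster 9 listed 9, all at least 10 points higher, against 18.5% of all genes. As a share of the whole list, the genes 10 points higher came to 92.0% in cluster 5, 88.0% in cluster 6 and 18.0% in cluster 9. The first 2 clusters therefore listed almost the whole set, and cluster 9 listed a share of it close to that of the table at large.

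**Figure D1:**
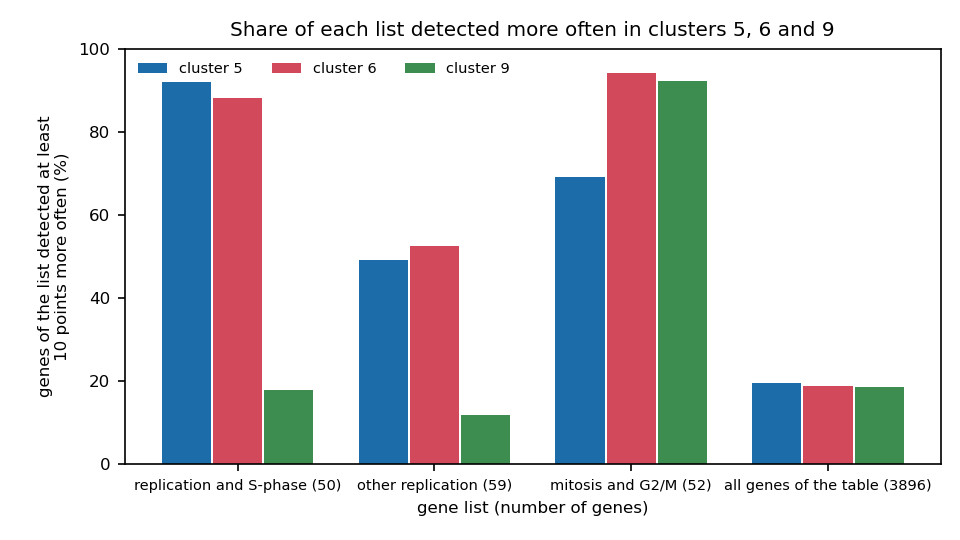
Bars give the percent of each gene list (x axis, number of genes in brackets) that was detected at least 10 percentage points more often in cluster 5, 6 or 9 than in all other cells. The 50 replication and S-phase genes reach 92.0% and 88.0% in clusters 5 and 6 and 18.0% in cluster 9, while the 52 genes of mitosis and G2/M reach 69.2%, 94.2% and 92.3%.

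In cluster 5 the median detection over the 46 listed genes was 69.25% of cells, against a median of 17.15% in the other cells. In cluster 6 the median over 44 genes was 67.25% of cells against 18.45%, and in cluster 9 the median over 9 genes was 73.2% of cells against 23.4%. Over all genes listed for clusters 5, 6 and 9, the median detection was higher, at 80.2%, 70.0% and 84.45% of cells. In the other cells it was 52.5%, 51.6% and 57.7%. The median difference of detection of the replication and S-phase genes was 50.25, 46.5 and 46.2 percentage points in the 3 clusters. Among all genes of the table that were at least 10 points higher in the same cluster, the median difference was smaller, at 30.0, 32.8 and 27.7 percentage points. Those genes had higher detection in the other cells, with medians of 49.75%, 37.5% and 56.3%, which leaves less room for a difference. Over the listed mitosis and G2/M genes the median difference was 42.2, 49.1 and 51.7 points. Pclaf, which binds the PCNA clamp, had a larger difference of detection in cluster 5 than any other gene of the table, at 74.7 percentage points.

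What the genes share in sequence was read from the RefSeq promoter windows (GRCm38.p6), which run from 250 bases before to 50 bases after each annotated start. Of the 50 genes, 43 had a window. Words of the type bound by E2F factors (TTTCCCGC, TTTCGCGC, TTTGCCGC and TTTGGCGC, on either strand) were found in a window of 16 of the 43 genes, or 37.2%. The share was 37.8% of the other replication genes, 6.52% of the mitosis and G2/M genes, 6.03% of the genes of the table and 2.60% of all 27025 genes with a window. The CHR word TTTGAA, an element of many mitotic promoters, was present for 71.7% of the mitosis and G2/M genes and 16.3% of the replication and S-phase genes. It was present for 20% of the other replication genes, 15.3% of the genes of the table and 20.2% of all genes, so the replication and S-phase genes lay near the background. The letters CCAAT were present for 67.4% of the replication and S-phase genes and 76.1% of the mitosis and G2/M genes. They were present for 51.1% of the other replication genes, 44.5% of the genes of the table and 41.1% of all genes.

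The members with an E2F-type word were Cdc6, Cdt1, Clspn, Dnmt1, Hells, Lig1, Mcm3, Mcm5, Mcm6, Mcm7, Pclaf, Pola1, Pold1, Pold3, Rfc3 and Uhrf1. In 9 of them a word lay wholly before the start. The stretches below, from 4 of these 9 genes, are examples that carry such a word and in GENCODE vM21 lie outside exons, as a stretch of Pola1 that is not shown also does. They are written on the strand of the gene, with the word in capitals and 20 bases on each side. Those of Mcm5 (chr8:75109336-75109387, plus strand, 153 bases before the start) and Mcm6 (chr1:128359725-128359835, minus strand, 110 and 47 bases before the start) lie between genes, and each holds a pair of words that overlap on opposite strands. Those of Cdc6 (chr11:98907993-98908040, plus strand, 138 bases before) and Uhrf1 (chr17:56304108-56304155, plus strand, 185 bases before) lie in an intron of a longer annotated transcript.
Mcm5: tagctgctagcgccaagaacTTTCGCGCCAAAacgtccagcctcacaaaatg
Mcm6: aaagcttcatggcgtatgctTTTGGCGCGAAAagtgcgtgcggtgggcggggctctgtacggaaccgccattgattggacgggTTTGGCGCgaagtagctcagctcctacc
Cdc6: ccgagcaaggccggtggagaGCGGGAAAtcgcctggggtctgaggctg
Uhrf1: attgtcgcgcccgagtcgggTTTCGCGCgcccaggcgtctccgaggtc

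For contrast, the CHR word is in capitals in the promoters of Mki67 (chr7:135716452-135716515, minus strand, 116 and 98 bases before the start) and Ccnb2 (chr9:70421696-70421741, minus strand, 167 bases before the start), mitotic genes with high detection in cluster 9, and both stretches lie between genes. Mki67 was also detected in 78.6% of cluster 5 cells and 92.0% of cluster 6, so it does not set cluster 9 apart.
Mki67: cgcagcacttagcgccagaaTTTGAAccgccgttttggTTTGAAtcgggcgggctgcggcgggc
Ccnb2: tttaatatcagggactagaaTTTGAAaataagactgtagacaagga

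A match of letters is not a bound site, and a window without the letters says nothing about the factor. The 4 genes whose E2F-type words are shown spanned much of the range of detection in cluster 5, from 33.4% of cells for Cdc6 to 82.4% for Mcm6.

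**Figure D2:**
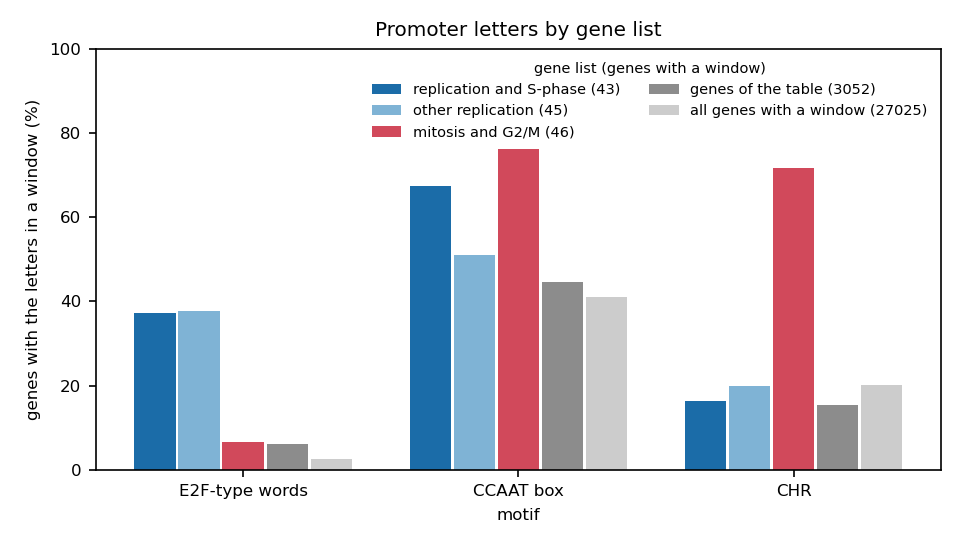
Bars give the percent of genes in each list (colours, number of genes with a promoter window in brackets) whose window holds an E2F-type word, the CCAAT box or the CHR word on either strand. E2F-type words stand at 37.2% of the replication and S-phase genes and 6.52% of the mitosis and G2/M genes, and the CHR word at 16.3% and 71.7%.

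Origin licensing was covered by 9 genes, of which 8 had an entry, and all 8 were listed for clusters 5 and 6 and for no other cluster with higher detection. The subunits of the MCM helicase were detected in most cells of both clusters, except for Mcm2 in cluster 6. Mcm3 (chromosome 1, 20802966 to 20820312, mm10) was detected in 87.2% of cluster 5 cells, 77.0% of cluster 6 and 17.7% of the cells outside both. Mcm6 was detected in 82.4%, 73.1% and 18.4% of the cells of the same 3 groups, and Mcm7 in 80.2%, 82.3% and 20.3%. The remaining subunits lay lower.

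Mcm4 was detected in 78.7% of cluster 5 cells, 72.6% of cluster 6 and 19.4% of the cells outside them. Mcm5 was detected in 69.6%, 66.7% and 7.35% of the cells of these groups. Mcm2 (chromosome 6, 88883474 to 88898780) stood out from its partners by its gap between the clusters, with 67.4% of cluster 5 cells and 49.8% of those of cluster 6, beside 12.6% outside. The 6 subunits form 1 ring, yet their detection ranged from 67.4% to 87.2% of the cells in cluster 5. Detection in single cells also moves with how much transcript a gene makes and how well it is captured, and these values were not separated here.

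Orc6, a subunit of the origin recognition complex, was detected in 84.9% of cluster 5 cells, 75.7% of cluster 6 and 30.8% of the cells outside both. Cdc6 (chromosome 11, 98907709 to 98923942), which helps to load the MCM ring and has the promoter word shown above, was detected in 33.4% of cluster 5 cells and 31.1% of cluster 6. Only 1.69% of the cells outside these clusters had a Cdc6 transcript, the lowest such value of the 43 genes listed for both clusters. Of the cells in which Cdc6 was detected, 78.8% belonged to clusters 5 and 6, the highest share of the 43 genes.

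Helicase activation and elongation was covered by 5 genes, of which 4 had an entry. Gins2 (chromosome 8, 120581266 to 120589075), a subunit of the GINS complex, was detected in 78.0% of cluster 5 cells, 58.5% of cluster 6 and 56.4% of cluster 9. Its gap of 19.5 percentage points between clusters 5 and 6 was the largest of all 43 genes listed for both. Clspn (chromosome 4, 126556957 to 126594533), which encodes Claspin, a protein of the replication fork and its checkpoint, was detected in 78.0% of cluster 5 cells, 82.5% of cluster 6 and 7.53% of the cells outside both.

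Cdc45, the partner of the MCM ring in the active helicase, had nearly equal detection in 41.7% of cluster 5 cells and 41.8% of cluster 6, beside 3.68% outside. Mcm10, which helps to start the helicase, was detected in 34.4% of cluster 5 cells, 39.3% of cluster 6 and 2.09% of the cells outside both. These genes of low detection had some of the largest ratios in the set. Mcm10 was detected 16.4 times as often in cluster 5 as outside the clusters, a ratio that rests on its small outside value.

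The polymerases and primase were listed only for clusters 5 and 6. Of 8 genes, 7 had an entry, and 5 of these were listed for both clusters. Pola1, the catalytic subunit of DNA polymerase alpha, was detected in 57.0% of cluster 5 cells, 57.1% of cluster 6 and 9.27% of the cells outside both. Prim1, the catalytic subunit of primase, was detected in 60.0%, 57.1% and 6.81% of the cells of these groups. The polymerases that extend the strands were detected in fewer cells.

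Pold1, the catalytic subunit of polymerase delta, was detected in 40.0% of cluster 5 cells, 42.8% of cluster 6 and 6.58% of the cells outside them. Pold3, another delta subunit, was detected in 47.8%, 47.1% and 10.9% of the cells of these groups. Pole, the catalytic subunit of polymerase epsilon, was detected in 34.1% of cluster 5 cells, 42.1% of cluster 6 and 3.41% of the cells outside. The 2 genes listed for a single cluster were partners of the above. Pola2 was listed for cluster 6, with 41.9% of its own cells against 10% of all others, and Prim2 for cluster 5, with 42.9% against 11.2%.

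The clamp, the clamp loader and the enzymes that process Okazaki fragments had entries for all 9 genes. Pcna (chromosome 2, 132249286 to 132253180), the clamp itself, was detected in 95.8% of cluster 5 cells, 93.5% of cluster 6 and also 41.7% of the cells outside both. Pclaf (chromosome 9, 65890323 to 65903551) was detected in 92.0% of cluster 5 cells, 91.6% of cluster 6, 83.8% of cluster 9 and 5.30% of the cells outside all 3 clusters. Outside clusters 5 and 6 alone its detection was 10.7% of cells, so the clamp was found there in many more cells than its binding partner.

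The clamp loader, replication factor C, is made of Rfc1 to Rfc5. Rfc1, its large subunit, was detected in 85.2% of cluster 5 cells, 87.6% of cluster 6 and 43.7% of the cells outside both, the highest outside value of the 43 genes. Rfc2 was detected in 73.1%, 76.7% and 24.6% of the cells of these groups, and Rfc4 in 68.8%, 65.1% and 14.6%. Rfc3 and Rfc5 differed between the clusters in opposite directions.

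Rfc3 was detected in 68.6% of cluster 5 cells, 55.1% of cluster 6 and 13.6% of the cells outside both. Rfc5 was detected in 60.6% of cluster 5 cells, 67.8% of cluster 6 and 51.3% of cluster 9, the only subunit of the loader listed for cluster 9. Lig1 (chromosome 7, 13277175 to 13311426), the ligase that joins Okazaki fragments, was detected in 82.2% of cluster 5 cells, 77.8% of cluster 6 and 13.6% of the cells outside both. Fen1, the nuclease that trims their flaps, was detected in 62.0%, 57.7% and 8.60% of the cells of these groups.

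Replication protein A coats single-stranded DNA. Rpa1 was detected in 64.0% of cluster 5 cells, 60.6% of cluster 6 and 17.8% of the cells outside both, and Rpa2 in 55.3%, 59.0% and 8.23%. Rpa3 was listed for clusters 5 and 9 but not 6, with 67.8% of cluster 5 cells and 67.5% of cluster 9, against 33.0% and 34.2% of the respective other cells.

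Nucleotide supply was the role that cluster 9 listed in full, with 5 of 5 genes. Rrm1 (chromosome 7, 102441695 to 102469771) and Rrm2 (chromosome 12, 24708254 to 24714146) encode ribonucleotide reductase, which makes deoxynucleotides. Rrm1 was detected in 90.1% of cluster 5 cells, 88.6% of cluster 6, 78.8% of cluster 9 and 20.8% of the cells outside the 3 clusters. Rrm2 was detected in 86.2%, 82.8%, 73.2% and 10.6% of the cells of these groups. The detection of both was lowest in cluster 9 among the 3.

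Tyms (chromosome 5, 30038546 to 30073645), thymidylate synthase, was detected in 86.1% of cluster 5 cells, 83.1% of cluster 6, 80% of cluster 9 and 20.4% of the cells outside. Tk1 (chromosome 11, 117815519 to 117826087), thymidine kinase, was detected in 72.1%, 68.1%, 62.8% and 2.74% of the cells of these groups. Dut, which removes dUTP, was detected in 95.6%, 88.4% and 82.6% of the cells of the 3 clusters and in 40.4% of the others. Tk1 and Dut marked the ends of the range over the 8 genes listed for all 3 clusters. Clusters 5, 6 and 9 held 87.6% of all cells in which Tk1 was detected, but 38.6% of those in which Dut was.

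Histone supply and nucleosome assembly had entries for all 5 genes. Nasp, a histone chaperone, was detected in 92.1% of cluster 5 cells, 89.5% of cluster 6 and 37.2% of the cells outside both. Slbp, which binds histone mRNA, was detected in 79.5%, 78.9% and 27.9% of the cells of these groups. Chaf1a, a subunit of chromatin assembly factor 1, was detected in 62.7%, 65.6% and 9.53% of them. Its partner Chaf1b was listed for cluster 5 alone, with 58.8% of its own cells against 7.9% of all others. Asf1b, another histone chaperone, was detected in 44.7% of cluster 5 cells, 51.8% of cluster 6 and 4.34% of the cells outside both.

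The genes that copy DNA methylation and remodel chromatin were detected in the majority of the cells of clusters 5 and 6. Atad2 (chromosome 15, 58094044 to 58135525), a chromatin-bound ATPase, was detected in 93.6% of cluster 5 cells, 90% of cluster 6 and 22.2% of the cells outside both. Dnmt1, the maintenance DNA methyltransferase, was detected in 86.7%, 85.7% and 25.4% of the cells of these groups. Its recruiter Uhrf1 was detected in far fewer cells outside the clusters, with 68.9%, 63.2% and 5.86%. Hells, a remodeller needed for DNA methylation, was detected in 77.4% of cluster 5 cells, 69.3% of cluster 6 and 12.2% of the cells outside.

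Recombination repair was represented by Brca1 and Rad51ap1, which act at damaged or stalled forks. Brca1 (chromosome 11, 101488761 to 101551955) was detected in 38.7% of cluster 5 cells, 50.0% of cluster 6 and 2.43% of the cells outside both. Rad51ap1 was detected in 59.3%, 59.5% and 3.56% of the cells of these groups. Both were concentrated in these clusters, which held 77.8% of the cells with Brca1 and 76.4% of those with Rad51ap1.

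**Figure D3:**
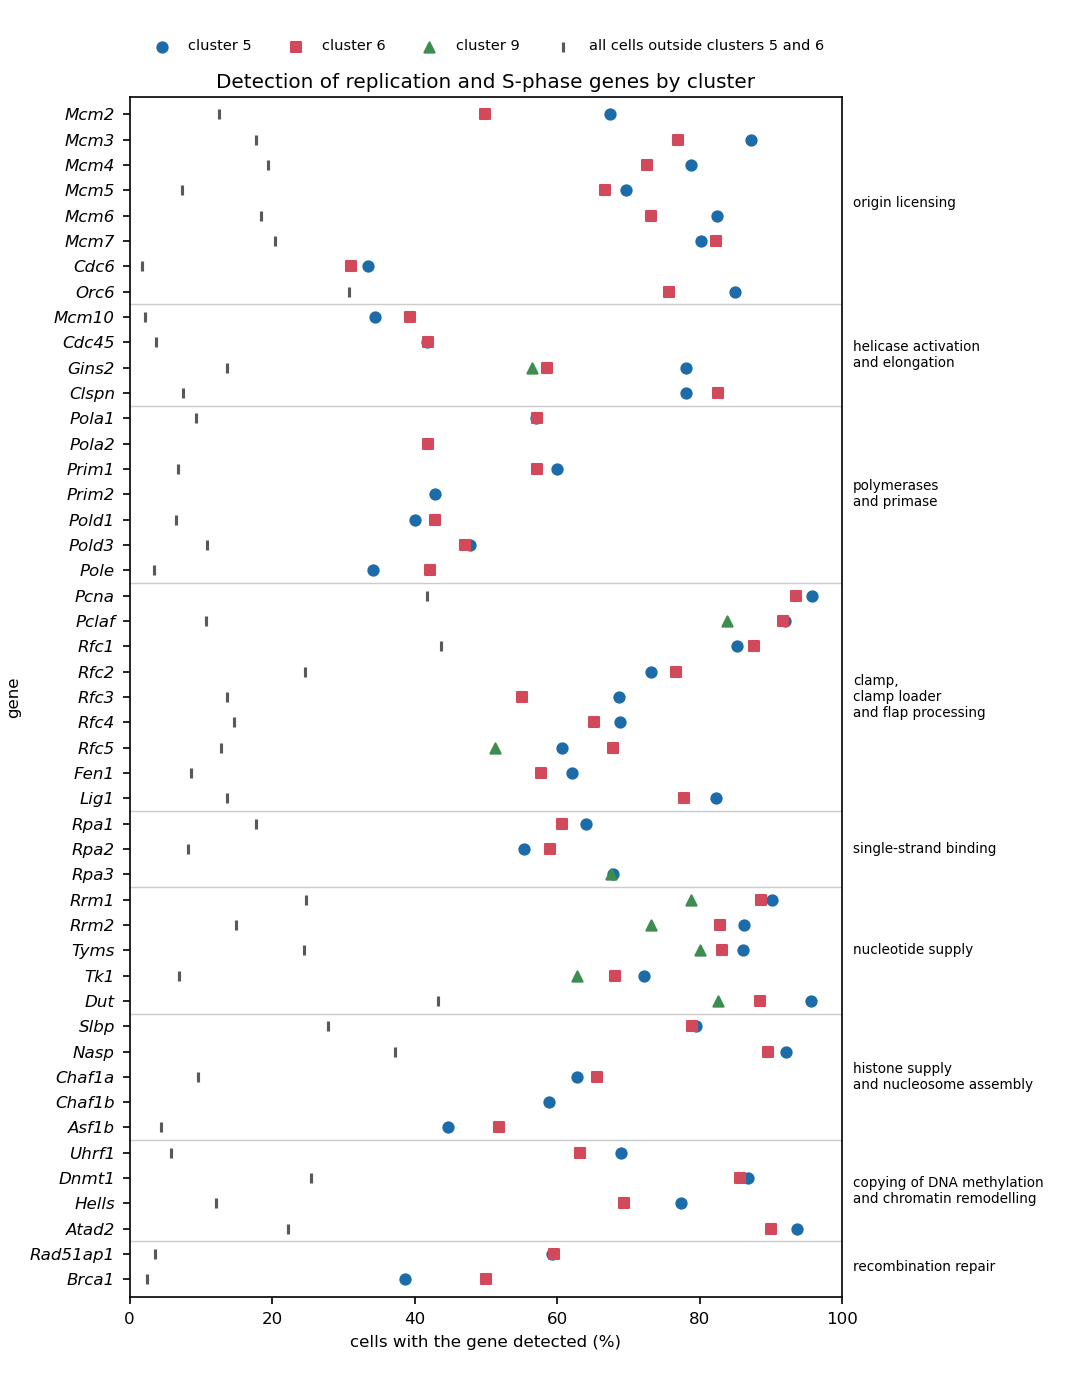
Each line is a gene, grouped by role, and the x axis gives the percent of cells with the gene detected in cluster 5 (circles), cluster 6 (squares), cluster 9 (triangles) and, for the 43 genes listed for both 5 and 6, all cells outside those clusters (bars). The circles and squares lie close together and far from the bars, and triangles appear for 9 genes, among them all 5 of nucleotide supply.

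Over the 43 genes listed for both clusters, the median detection outside clusters 5 and 6 was 12.8% of cells, from 1.69% for Cdc6 to 43.7% for Rfc1. Detection in cluster 5 was a median of 5.72 times that outside, from 1.95 times for Rfc1 to 19.8 times for Cdc6. In cluster 6 the median ratio was 5.28, from 2.0 to 20.6, the highest being that of Brca1. Clusters 5 and 6 held 16.3% of all cells and a median of 49.6% of the cells in which a replication gene was detected. The corresponding median was 36.9% over the 294 genes of the table that were at least 10 points higher in both clusters, and 55.5% over 36 genes of mitosis and G2/M. The cells outside include clusters 4 and 10, which held 9.59% and 3.22% of all cells. Detection in them was low in general, with medians of 10.8% and 8.1% of cells over the genes listed for each. Their part in the outside values and the ratios was not tested. How much of the detection outside the clusters came from free RNA in the droplets was not tested, since the table holds no empty droplets and no depths.

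A list of 59 other genes of replication and its control was looked up beside the set, and 38 had an entry. It was chosen by function, but with earlier results of these data known. Cluster 5 listed 29 of them, cluster 6 listed 31 and cluster 9 listed 7, all at least 10 points higher. These were 49.2%, 52.5% and 11.9% of the 59 genes, against 19.5%, 18.8% and 18.5% of all genes. The 59 genes include those without an entry, whereas all genes of the table have one, so the share in cluster 9 cannot be called lower. Of the 38 genes with an entry, cluster 9 listed 7. The leading genes in cluster 5 were Gmnn, the inhibitor of Cdt1, in 83.1% of cells against 18.2% of the others, and Hat1, a histone acetyltransferase, in 80.6% against 23.5%. In cluster 6 they were Esco2, a cohesin acetyltransferase, in 70.5% against 8.2%, Gmnn in 74.3% against 19.9%, and Ezh2, a histone methyltransferase, in 80.9% against 27.8%. In cluster 9 they were Dbf4, the activator of the Cdc7 kinase, in 78.3% against 21.5%, Usp1, a deubiquitinase of PCNA, in 74.8% against 38.0%, and Dctpp1, a dCTP pyrophosphatase, in 77.0% against 43.4%. Pold4 and Top1 had entries for other clusters only, and 21 of the 59 genes had none.

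Clusters 5 and 6 were next compared within the 43 genes listed for both. Detection was higher in cluster 5 for 28 genes and higher in cluster 6 for 15, with a median difference of 2.3 percentage points and a range from -11.3 to 19.5. Over all 629 genes listed for both clusters, 338 were higher in cluster 5 and the median difference was 0.4 percentage points. Among the 294 that were at least 10 points higher in both than in the other cells, as the whole set was, 131 were higher in cluster 5 and the median difference was -0.5 points. Most of the set thus differed little between the clusters. Some roles leaned to a single cluster, while others were split. Of the clamp, clamp loader and flap genes, 6 of 9 were higher in cluster 5. The same held for 2 of 4 genes of histone supply and 1 of 4 of helicase activation.

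Of the 8 licensing genes, 7 were detected more often in cluster 5, with a median difference of 7.65 percentage points. Mcm2 differed by 17.6 points, Mcm3 by 10.2, Mcm6 by 9.3 and Orc6 by 9.2, and the exception was Mcm7 at -2.1. All 5 genes of nucleotide supply were higher in cluster 5, by a median of 3.4 points, as were all 4 of methylation copying and remodelling, by a median of 4.65 points. The largest difference outside licensing and Gins2 was that of Rfc3, at 13.5 points.

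Both recombination genes were higher in cluster 6, with Brca1 at a difference of -11.3 percentage points (cluster 5 minus cluster 6) and Rad51ap1 at -0.2. Pole followed at -8.0, Rfc5 at -7.2, Asf1b at -7.1, Mcm10 at -4.9 and Clspn at -4.5. Among the 5 polymerase and primase genes, 2 were higher in cluster 5 and the median difference was -0.1 points. No replicate stands behind these values, so it is unknown whether differences of a few points exceed the spread between samples.

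Genes of mitosis and G2/M gave the opposite split. Of 36 such genes listed for both clusters, 3 were detected more often in cluster 5 and 33 in cluster 6, with a median difference of -8.85 percentage points. Of the 52 genes of this list, 36 were listed for cluster 5, 49 for cluster 6 and 48 for cluster 9. All were at least 10 points higher there, making 69.2%, 94.2% and 92.3% of the list. The shares of all genes of the table were 19.5%, 18.8% and 18.5%. Among the other replication genes, 11 of 24 were higher in cluster 5, with a median difference of -0.75 points.

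Cluster 9 differed from the other cycling clusters in what it listed of the set. Of the 47 genes, 8 were listed for all 3 clusters, namely Dut, Gins2, Pclaf, Rfc5, Rrm1, Rrm2, Tk1 and Tyms, and Rpa3 for clusters 5 and 9. The 8 made up 16.0% of the 50 genes, against 4.21% of all genes at least 10 points higher in all 3 clusters. For clusters 5 and 9 without 6, the shares were 2.0% and 7.93%. None of the licensing, polymerase, histone or methylation genes was listed for cluster 9, and a missing entry there is not a measured low level. Of the 9 genes that cluster 9 shared with cluster 5, 9 were detected more often in cluster 5, by a median of 9.3 percentage points, from 0.3 for Rpa3 to 21.6 for Gins2. Of the 8 shared with cluster 6, 8 were higher in cluster 6, by a median of 6.8 points. Over all genes listed for both clusters of a pair, the median difference was 0.2 points for cluster 5 minus cluster 9 and -3.7 points for cluster 6 minus cluster 9. Over the genes at least 10 points higher than the other cells in both clusters of a pair, as all of the set were, it was 0.3 points and -0.7 points.

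In the same comparison the mitosis and G2/M genes were higher in cluster 9, with 28 of 35 above cluster 5 and a median difference of -12.6 points for cluster 5 minus cluster 9. The leading genes of this list in cluster 9 were Cenpa, the centromeric histone, in 95.7% of cells against 12.7% of the others, Hmmr, a spindle protein, in 90.7% against 14.0%, and Cdc20, the activator of the anaphase-promoting complex, in 86.6% against 10.7%. In cluster 6 they were Mki67, Top2a and Birc5, a subunit of the chromosomal passenger complex, which was detected in 88.3% of cells against 18.9%. In cluster 5 they were Top2a, Cdk1, the mitotic kinase, in 88.0% against 23.1%, and Birc5 in 79.9% against 18.7%. Ccnb2, a mitotic cyclin, was listed for cluster 9 with 85.3% of cells and for cluster 6 with 55.8%, and not for cluster 5.

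**Figure D4:**
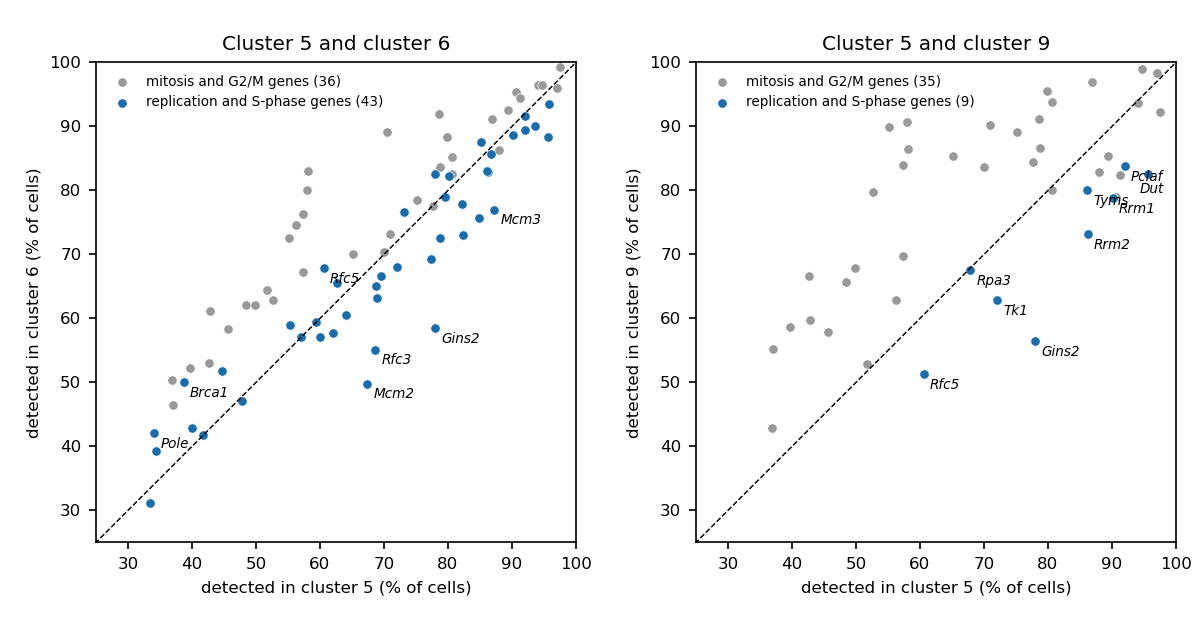
Each point is a gene listed for both clusters of a panel, with its detection in percent of cells in cluster 5 on the x axis and in cluster 6 (left) or cluster 9 (right) on the y axis, and the dashed line marks equal detection. Replication and S-phase genes (blue) lie around or under the line, with 28 of 43 under it on the left and 9 of 9 on the right, while 33 of 36 and 28 of 35 mitosis and G2/M genes (grey) lie above it.

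A missing entry in cluster 9 says little by itself, but the cell shares put a limit on some genes. If every cell with a gene outside clusters 5 and 6 lay in cluster 9, detection in cluster 9 would still reach at most 24.4% for Cdc6, 30.2% for Mcm10 and 35.1% for Brca1. With the rounding of the deposited values allowed for, these limits became 26.3%, 33.0% and 37.4%, each below the detection in clusters 5 and 6. The limit for Rad51ap1, which is 54.3% with the rounding allowed for, was also below its detection in both clusters. Atad2 is also listed for most other clusters, and with the cells known to be there taken off as well, its limit was 85.5% with the rounding allowed for, again below its detection in both. For Pole, at 49.2%, and for the remaining genes listed for clusters 5 and 6 but not 9, the limit was not below the detection in both.

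Clusters 5 and 6 also differed in genes of fat cell differentiation, which are no part of the set. Col5a3, a marker of differentiating cells in the study, was detected in 24.9% of cluster 5 cells and 83.1% of cluster 6. Serpina3n, another such marker, was detected in 36.7% of cluster 5 cells, 89.7% of cluster 6 and 35.7% of cluster 9. The fatty acid binding protein Fabp4 was detected in 59.9% of cluster 5 cells, 99.9% of cluster 6 and 67.7% of cluster 9. Plin1, which coats lipid droplets, was detected in 1.9% of cluster 5 cells and 45.5% of cluster 6. The part of these differences in the levels of the replication genes was not tested. Defining genes of immune, endothelial and glial cells (Ptprc, Cd68, Pecam1, Cdh5 and S100b) had no entry in the table. The authors had removed such cells before this clustering, and nothing can be read from the missing entries.

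In the other 9 clusters the set had 71 entries, from 20 genes, and 69 of these showed lower detection than in the remaining cells. Since the remaining cells include clusters 5, 6 and 9, lower detection elsewhere follows in part from how the comparison is built. Counted over all 50 genes, as the share of all genes of the table is counted over all 3896, cluster 1 had 17 at least 10 points lower, or 34.0% against 3.93%. Cluster 3 had 9, or 18.0% against 3.11%, cluster 7 had 8, or 16.0% against 1.93%, and cluster 0 had 3, or 6.0% against 2.67%. Cluster 2 had 6, or 12% against 9.98%, and cluster 8 had 7, or 14.0% against 13.1%, and these shares were close to those of all genes.

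Some genes were rarely detected in these clusters. Tk1 was detected in 1.7% of cluster 3 cells, 1.8% of clusters 2 and 7, 2.5% of cluster 1, 3.0% of cluster 8 and 4.2% of cluster 0. Pclaf was detected in 2.6% of cluster 3 cells, 3.4% of cluster 1, 3.9% of cluster 7, 4.9% of cluster 8, 5.2% of cluster 2 and 7.6% of cluster 0. Their highest values among these 6 clusters were both in cluster 0. Atad2 had an entry in each of the same clusters, with detection from 14.3% of the cells in cluster 7 to 26.0% in cluster 0.

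Cluster 11, which held 1.5% of all cells, listed 14 of the genes, and among the entries of the set it was the only cluster besides 5, 6 and 9 with any of higher detection than in the other cells. Pcna was detected in 61.2% of its own cells against 50.1% of the others, and Rrm1 in 45.1% against 35.2%. Only Pcna was at least 10 points higher, or 2.0% of the 50 genes, against 28.2% of all genes of the table. The other 12 were detected less often, 5 of them by at least 10 points, which is 10% of the 50 genes and below the 18.3% of all genes of the table. Lig1 was detected in 12.6% of cluster 11 cells against 24.6%, Pclaf in 12.2% against 24.1%, and Clspn in 8.1% against 19.5%. Adipoq, the adipocyte hormone adiponectin, was detected in 92.1% of the cells of the same cluster against 17.6%, and Plin1 in 99.8% against 14.4%, while Mki67 was detected in 13.1% against 23.1%.

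In cluster 4 the set had a single entry, that of Dut, detected in 7.8% of cells against 55.9% of the others. Over all 2068 genes listed for cluster 4, the median detection was 10.8% of cells against 62.95% of the others, so low detection there was general. Cluster 10 had no entry from the set.

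**Figure D5:**
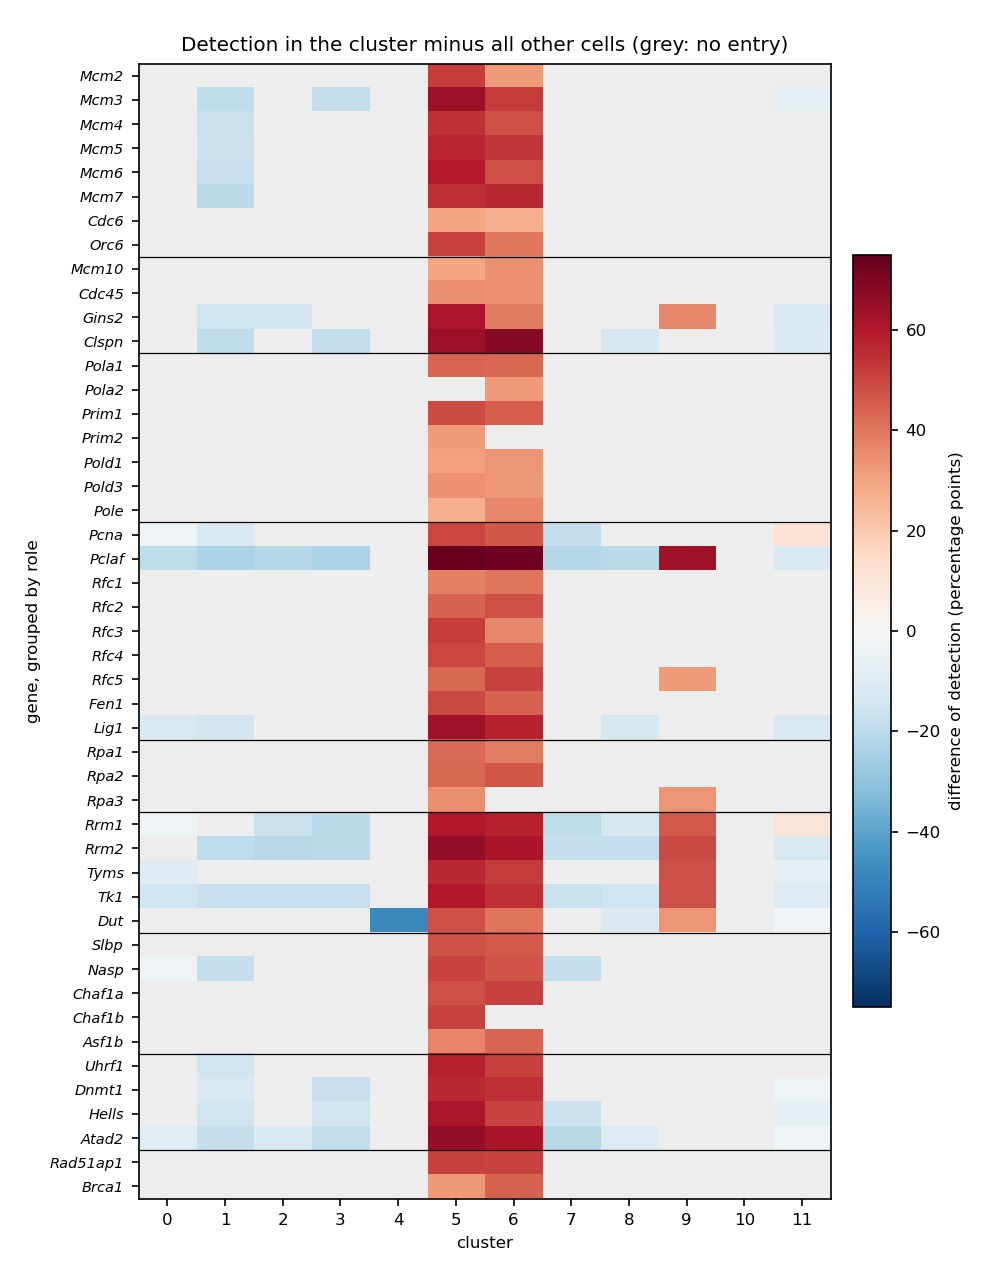
Rows are the 47 genes with an entry, grouped by role, columns are the 12 clusters, and colour gives the detection in the cluster minus that in all other cells in percentage points, with grey where there is no entry. The red columns are clusters 5 and 6, cluster 9 is red for 9 genes, and the 71 entries elsewhere are blue except for Pcna and Rrm1 in cluster 11.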

How the data were processed

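Single-cell RNA from 8 samples (WT and DKO, day 0 and day 6, 2 each) was captured with a 3′ droplet chemistry. By the published methods, reads were mapped by the authors to mm10 with Cell Ranger 6.0.0, and the authors aggregated the captures at equal read depth, removed cells with under 500 genes or over 10% mitochondrial reads, removed immune, glial and endothelial cells, clustered at a resolution of 0.6 in Seurat and compared each cluster with all other cells by MAST. Removal of doublets is not given in the sources used here. The deposited values used were the 2 detection fractions of each entry (share of cells with a transcript within a cluster and beyond it), printed as percents. The table also holds the authors' own fold changes, p-values and adjusted p-values, which were not used. It has no column per sample, and 0 sample columns were left unused, so no test was run.

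Of 13337 entries, 35 with symbols turned into dates were left out. Cluster shares were solved by least squares (Python 3.11.15, numpy 2.4.6, scipy 1.17.1, pandas 2.3.3) over the 10 genes listed for all 12 clusters, after a check on simulated tables. The 12 shares summed to 99.92%, and a gene's overall detection differed by at most 0.13 percentage points between clusters. Detection outside clusters, and the limits for cluster 9, were computed from these shares; the limits were added on seeing the values. The members, the gene lists and the minimum difference of 10 points were chosen with earlier results of these data known. All members are accounted for, and of the comparison lists the 3 genes with the largest difference per cluster are named, with the marker genes of the label check; Ccnb2 was chosen as such a marker. Some genes that this rule names are not reported here. Pcna, Nasp and Tyms have named pseudogenes (Pcna-ps1, Pcna-ps2, Nasp-ps1 and Tyms-ps), so their values are less certain. Gene positions are those of the RefSeq annotation, promoter words were matched exactly, and a gene with several windows counted if any held the word. Of 51 member windows, 44 had the bases after the start inside a GENCODE transcript. A planned comparison of protein sequences was not run here.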

Additional observations from a re-analysis of the deposited data

How the results depend on the processing

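No paired analysis was possible because all samples were pooled and no column carries a replicate number. For clusters 5, 6 and 9, the counts of genes with higher detection, the median detection, the comparisons between clusters and the cluster shares stayed within 1.5 times of their reported values, with the same direction, under minimums of 5 and 20 percentage points, a detection of at least 25% on either side, a ratio of at least 1.5, odds ratios, detection between 10% and 90%, the 8 genes listed for all 3 clusters, and shares from the 2687 genes listed for at least 2 clusters. The order of the median detection did change. Cluster 9 had the highest median over the genes each cluster listed. Over the 8 genes listed for all 3 clusters it had the lowest, with 86.15%, 82.95% and 76.0% of cells in clusters 5, 6 and 9. The counts of genes with lower detection elsewhere depended on the minimum. At 20 points they were 2 in each of clusters 1, 2 and 7, 1 in each of clusters 3 and 8 and 0 in clusters 0 and 11, and at 5 points they were 5 in cluster 0 and 9 in cluster 11. With a detection of at least 25% they were 11 in cluster 1 and 1 in cluster 11. Leaving clusters 4 and 10 out of the cells outside could not be run, since no gene of the set is listed for both. Cell numbers and depth are unknown and limit every value.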
